A study of Mus musculus with 39 samples.

Results

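The Hes and Hey genes encode basic helix-loop-helix repressors, and their binding by NOTCH and RBPJ in the embryonic mouse cortex is described here. The 9 members were Hes1, Hes2, Hes3, Hes5, Hes6, Hes7, Hey1, Hey2 and Heyl, taken by name. A peak was assigned to a member when the nearest start site of any protein-coding gene, measured from the edge of the peak, belonged to that member. Of 20809 consensus peaks on the nuclear chromosomes, 23 were assigned to members, and 6 of the 9 genes had at least 1. Hes1 had 12 of these peaks, Hey1 had 4, Hes5 had 3, Heyl had 2, and Hey2 and Hes7 had 1 each. No peak was assigned to Hes2, Hes3 or Hes6. Over the genome, 38.7% of the 21938 protein-coding genes had at least 1 consensus peak.

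The peaks came from targeted DamID (TaDa), in which a Dam methylase fused to a protein marks nearby GATC sites wherever the fusion sits on chromatin. Wild-type MF1 embryos were electroporated in utero at E13.5 and the electroporated cortex was microdissected at E14.5. Plasmids driven by a Hes5 promoter fragment targeted radial glial cells (RGCs), and plasmids driven by the Tα1 (Tuba1a) promoter targeted intermediate progenitor cells (IPCs). Human RBPJ1 was profiled in 3 RGC and 3 IPC samples. Notch in RGCs was profiled with 2 samples of the mouse intracellular domain (NICD) and 2 of the mouse receptor without its extracellular domain (NdECD), and Notch in IPCs with 4 samples of mouse NICD. All fusions were introduced proteins, so the Notch lists describe where an active, supplied fragment bound and not the endogenous receptor. Peaks were called against Dam-only samples, of which there were 5 under the RGC promoter and 4 under the IPC promoter. Which Dam-only samples entered each pair is not given in the sources used here, so the lists may share controls. The cell types could not be checked against marker genes, since expression was not measured in these samples.

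Hes and Hey proteins act downstream of the Notch receptors. When a receptor is cleaved, NICD enters the nucleus and joins RBPJ and a Mastermind protein on DNA to activate transcription, whereas RBPJ without NICD can hold corepressors on the same sites. Hes1 and Hes5, the best known of the targets in cortical RGCs, bind and repress proneural genes and so keep the cells from becoming neurons. Hes proteins recruit Groucho/Tle corepressors through a short motif at their C terminus. RBPJ recognizes a core word that reads TTCCCA on one strand and TGGGAA on the other, and its preferred sites extend to TTCCCAC, TGTGGGAA or CGTGGGAA.

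The sequences in which these words were found are shown first, because the peaks are kilobases wide and the words mark where RBPJ could contact them. RefSeq promoter entries on GRCm38.p6 were matched for 4 of the 9 members, Hes5, Hes6, Hes7 and Hey2. For Hes5, Hes7 and Hey2, which had a peak over the start site, the 250 bases before the RefSeq start site are given in the direction of transcription. Every RBPJ word that lay wholly within these bases is in capitals.
Hes5, chr4:154960673-154960922, plus strand: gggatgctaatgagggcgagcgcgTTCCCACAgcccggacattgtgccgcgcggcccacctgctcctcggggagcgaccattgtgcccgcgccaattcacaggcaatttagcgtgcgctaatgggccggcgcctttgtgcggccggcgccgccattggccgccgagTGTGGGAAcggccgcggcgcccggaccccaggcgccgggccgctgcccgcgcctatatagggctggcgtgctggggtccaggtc
Hes7, chr11:69120203-69120452, plus strand: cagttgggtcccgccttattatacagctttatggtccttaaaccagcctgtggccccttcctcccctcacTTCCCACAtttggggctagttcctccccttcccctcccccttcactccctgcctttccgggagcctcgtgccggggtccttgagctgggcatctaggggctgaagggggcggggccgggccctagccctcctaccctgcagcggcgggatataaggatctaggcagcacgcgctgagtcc
Hey2, chr10:30842784-30843033, minus strand: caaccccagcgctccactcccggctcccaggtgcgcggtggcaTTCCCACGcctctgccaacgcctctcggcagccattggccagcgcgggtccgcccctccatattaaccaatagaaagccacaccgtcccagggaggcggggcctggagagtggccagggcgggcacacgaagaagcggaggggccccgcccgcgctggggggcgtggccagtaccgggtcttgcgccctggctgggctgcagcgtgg
Hes5 carried words at 226 to 219 and at 84 to 77 bases before the start, both of them matches to TGTGGGAA on 1 strand or the other. Hes7 carried 1 match to TGTGGGAA, at 180 to 173 bases before the start. Hey2 carried a match to CGTGGGAA at 207 to 200 bases before the start and a second one that crossed the RefSeq start itself. The 2 Hes6 entries, for a member with no peak, held 0 matches to TTCCCA. Over all 32851 RefSeq promoter windows of 300 bases, 25.6% held TTCCCA, 6.38% held TTCCCAC and 2.57% held TGTGGGAA or CGTGGGAA on either strand. A match is a string of letters and was not tested as a site.

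Away from start sites, 5 member peaks were called in at least 3 of the 4 lists. From the 3 of these that belonged to Hes1 and Hes5 a window of 101 bases on the plus strand of GRCm38 is shown. Each window was centred on the TTCCCAC nearest to the middle of the stretch that all calling lists covered. Where the peak held no TTCCCAC, the nearest TTCCCA was taken. In the Hes5 peak 12.7 kb upstream, a TTCCCA nearer to the middle was passed over for the TTCCCAC.
Hes1, 179 kb upstream, chr16:29882965-29883065: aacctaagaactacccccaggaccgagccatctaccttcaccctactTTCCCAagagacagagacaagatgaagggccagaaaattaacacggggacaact
Hes5, 12.7 kb upstream, chr4:154946469-154946569: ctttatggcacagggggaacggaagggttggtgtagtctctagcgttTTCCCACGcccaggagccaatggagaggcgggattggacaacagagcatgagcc
Hes5, 6.64 kb upstream, chr4:154952747-154952847: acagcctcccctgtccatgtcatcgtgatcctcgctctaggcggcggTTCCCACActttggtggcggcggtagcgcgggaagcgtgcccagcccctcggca
Both windows from Hes5 hold a full TTCCCAC because of how they were chosen. It was followed by A or G, which makes TGTGGGAA or CGTGGGAA on the other strand. The Hes1 window held the 6-base core alone, since no TTCCCAC occurred anywhere in that peak. In all 3 windows the central word lay under every list that called the peak.

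Of the 23 member peaks, 20 were called in the RGC RBPJ list, 6 in RGC Notch, 11 in IPC RBPJ and 5 in IPC Notch. As shares these were 87.0% (Wilson 95% interval 67.9 to 95.5), 26.1% (12.5 to 46.5), 47.8% (29.2 to 67) and 21.7% (9.66 to 41.9). The corresponding shares of all 20809 consensus peaks were 67.6%, 17.7%, 26.2% and 10.1%. The genome value lay within the member intervals for RGC Notch and IPC Notch, just below the interval for RGC RBPJ and below that for IPC RBPJ. The intervals cover counting error over peaks only, and peaks of 1 gene are not independent of each other. Assigned one by one, the peaks of the single lists numbered 20, 6, 11 and 6 in the same order, the last because 2 IPC Notch peaks lay in the Hes1 start-site peak. Their median widths were 2636, 3552, 1221 and 1482 bp, so the member peaks of each protein were narrower in IPCs than in RGCs, as were the lists as a whole, with medians of 2059, 2389, 1398 and 1284 bp. The files hold positions and cluster numbers without heights or values of single samples, so no difference could be tested over replicates and every comparison is a description.

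**Figure D1:**
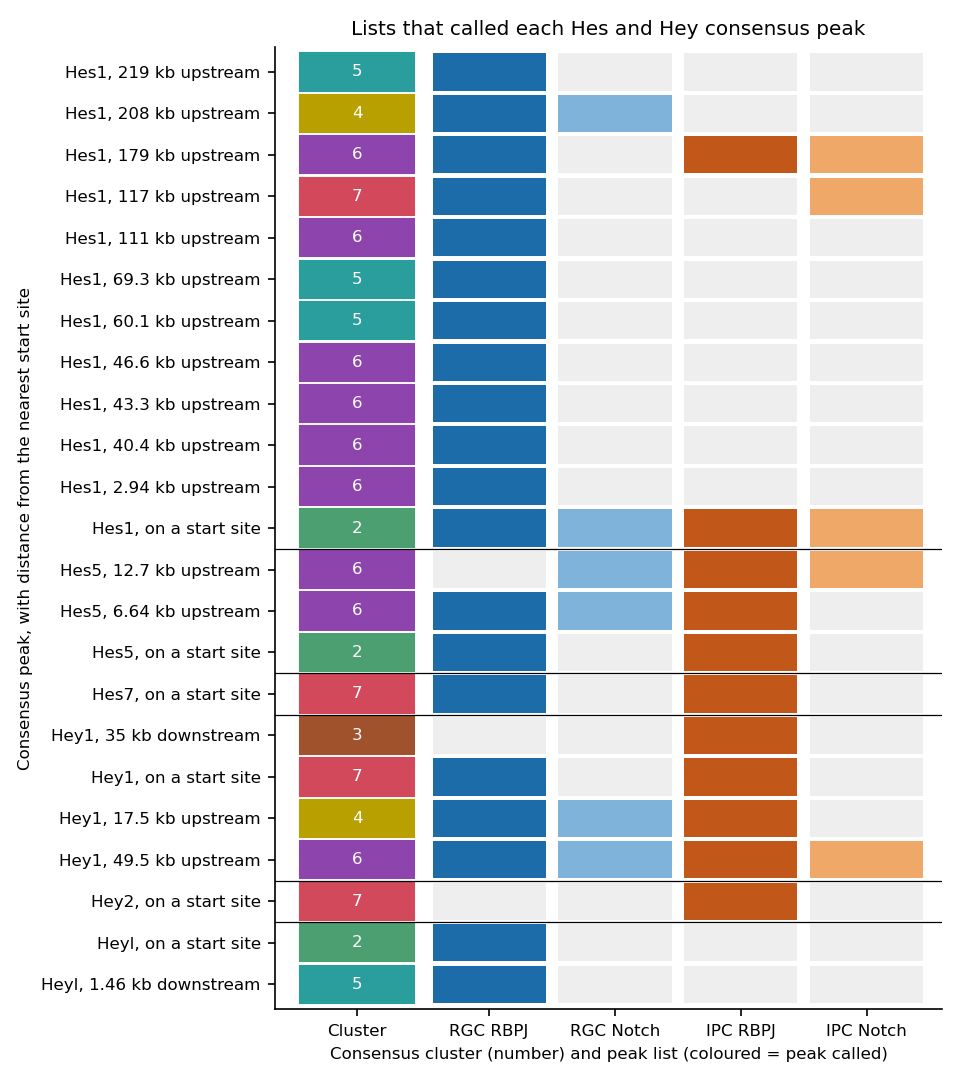
Consensus peaks of the 6 bound members in rows, with the cluster number in the first column and the 4 peak lists in the others, where a coloured tile is a called peak. Hes1 fills the RGC RBPJ column in 12 of 12 rows but the IPC RBPJ column in 2, whereas the remaining members fill the IPC RBPJ column in 9 of 11. Of all consensus peaks, 67.6% were called in RGC RBPJ and 26.2% in IPC RBPJ.

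The counts of list calls differed between the 12 Hes1 peaks and the 11 peaks of the other members. Peaks of 1 gene are not independent, and the difference was not tested. All 12 Hes1 peaks were called in RGC RBPJ, which is 100% (75.8 to 100) against 67.6% of all consensus peaks. In IPC RBPJ 2 of the 12 were called, which is 16.7% (4.7 to 44.8). That interval includes the 26.2% of all consensus peaks. Without Hes1, 8 of 11 peaks were called in RGC RBPJ, which is 72.7% (43.4 to 90.3), and 9 of 11 in IPC RBPJ, which is 81.8% (52.3 to 94.9). Calls in the RGC RBPJ list alone made up 8 of the 12 Hes1 peaks, which is 66.7% (39.1 to 86.2). The 52.1% of all consensus peaks lies within that interval. Among the other members they made up 2 of 11, which is 18.2% (5.14 to 47.7). The intervals of Hes1 and of the other members overlapped for RGC RBPJ and for RGC RBPJ alone, but not for IPC RBPJ. All 23 member peaks held a call from at least 1 of the RBPJ lists, and no member peak was called for Notch alone. Over all consensus peaks, 87.0% held an RBPJ call.

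By gene, 5 members had a peak with an RGC RBPJ call, 3 with RGC Notch, 5 with IPC RBPJ and 3 with IPC Notch. Of all protein-coding genes, 30.9%, 11.5%, 16.2% and 6.91% had one in the same order. The 3 members with Notch calls were the same for both cell types, namely Hes1, Hes5 and Hey1. Heyl had calls in RGCs alone, from RBPJ, and Hey2 in IPCs alone, also from RBPJ. Hes7 was called for RBPJ in both cell types and for Notch in neither.

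Peaks shared by several lists were frequent. Of the 23 peaks, 6 were called in at least 3 lists, a share of 26.1% (12.5 to 46.5) against 3.88% of all consensus peaks. Without Hes1 the count was 4 of 11, or 36.4% (15.2 to 64.6). Member peaks were also wider, with a median of 2694 bp against 1890 bp over all consensus peaks, and 10 of the 23 were at least 4000 bp wide against 11.2% of all. A wide consensus peak has more room for a call from each list, and the part of width in these shares was not tested.

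The authors sorted consensus peaks into 8 k-means clusters by binding intensity. In clusters 2, 6 and 7 they found both proteins in both cell types, and in cluster 4 both in RGCs. Of the member peaks, 9 were in cluster 6, 4 in cluster 5, 4 in cluster 7, 3 in cluster 2, 2 in cluster 4, 1 in cluster 3 and none in clusters 1 and 8. Clusters 2, 4, 6 and 7 held 18 of 23, a share of 78.3% (58.1 to 90.3) against 36.3% of all consensus peaks. Cluster 6 alone held 39.1% (22.2 to 59.2) against 10.8%. Without Hes1 these shares were 81.8% (52.3 to 94.9) and 27.3% (9.75 to 56.6), so the lead of cluster 6 rested in large part on Hes1, which had 6 of the 9 peaks. All 11 member peaks called in at least 2 lists were in clusters 2, 4, 6 and 7 (interval 74.1 to 100), and of all consensus peaks called in at least 2 lists 76.8% were, a value within that interval.

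The cluster of a peak and its calls are separate measures. Of the 6 Hes1 peaks in cluster 6, 5 were called in the RGC RBPJ list alone, although the cluster stands for signal of both proteins in both cell types. Over the genome, 64.2% of cluster 6 peaks were called in RGC RBPJ, 19.7% in RGC Notch, 11.0% in IPC RBPJ and 48.3% in IPC Notch. A list call had to be made against each control in turn for each fusion sample, whereas the clusters used averaged intensities.

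At the start sites the picture was narrower than over all peaks. A consensus peak lay on a start site of Hes1, Hes5, Hes7, Hey1, Hey2 and Heyl, that is 6 of 9 members, against 16.0% of all protein-coding genes. All 6 of these peaks were in cluster 2 (Hes1, Hes5, Heyl) or cluster 7 (Hes7, Hey1, Hey2), which held 23.9% of the 3444 consensus peaks on start sites in the genome. All 6 held an RBPJ call, against 87.3% of start-site peaks. Only the Hes1 peak held a Notch call, against 30.1% of start-site peaks, and the intervals around 1 of 6 are too wide to set these values apart. For Hes5 the presence or absence of an RGC call at the start site cannot be read as binding. RGC plasmids carried a Hes5 promoter fragment, and reads from plasmid and gene cannot be told apart there. The grouping of clusters 2 and 7 was chosen after the values were seen.

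Counted by the list peaks themselves, RGC RBPJ peaks covered a start site of 5 members, RGC Notch of 1, IPC RBPJ of 4 and IPC Notch of 1. The shares of all protein-coding genes were 11.7%, 3.61%, 3.73% and 1.12%. The IPC RBPJ peaks on start sites belonged to Hes1, Hes7, Hey1 and Hey2, and those of RGC RBPJ to Hes1, Hes5, Hes7, Hey1 and Heyl.

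**Figure D2:**
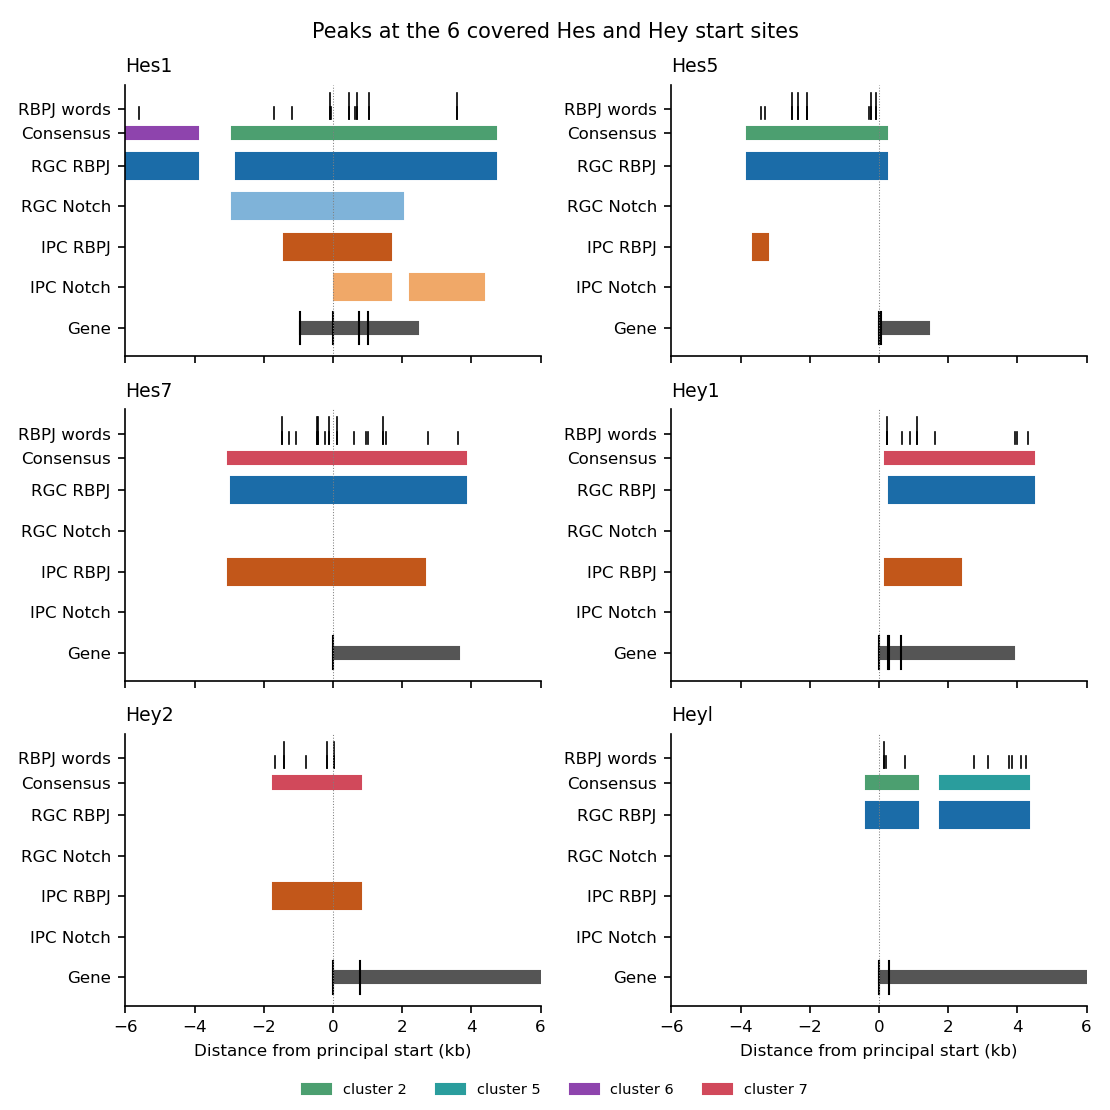
Peaks around the principal start site (0 kb, dotted line) of the 6 members with a start-site peak, with transcription to the right, a row for the consensus peak coloured by cluster, a row for each list, the gene body in grey with vertical bars at annotated start sites, and ticks for RBPJ words (short for the 6-base word, long for the 7-base word). Hes1 is the only panel with Notch peaks, and the Hey1 peaks begin 181 and 279 bp inside the gene. At the Hes5 start site, reads from the RGC plasmids and from the gene cannot be told apart.

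Hes1 (ENSMUSG00000022528), the main Notch effector repressor of RGCs, lies on chr16:30064384-30067796 on the plus strand. Its start-site peak spanned chr16:30062417-30070043, a width of 7627 bp, and covered the whole gene. Of all consensus peaks, 0.745% were at least as wide. The RGC RBPJ peak in it was 7515 bp wide, the RGC Notch peak 4958 bp and the IPC RBPJ peak 3108 bp, and each covered all 4 annotated start sites. IPC Notch had 2 peaks there, of 1664 and 2127 bp. The first began 18 bp after the principal start site at 30065340 and covered 2 of the 4 annotated start sites, and the second began 2238 bp after it. All 4 lists shared a stretch of 1664 bp, chr16:30065358-30067021, which lay inside the gene.

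The Hes1 start-site peak also held the only pair of RBPJ words facing each other among the member peaks. Such a pair, GTGNGAA followed after 15 to 19 bases by TTCNCAC, is the arrangement on which 2 NICD complexes can sit side by side. It spanned 30 bases, chr16:30065259-30065288, from 81 to 52 bases before the principal start site, with a gap of 16 bases. RGC RBPJ, RGC Notch and IPC RBPJ peaks covered it, and the IPC Notch peak did not. Of all 20809 consensus peaks, 30 held such a pair, or 0.144%, and 4 of the 32851 RefSeq promoter windows did.

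The other 11 Hes1 peaks all lay upstream. The sequence nearest to Hes1 reaches 225 kb upstream and 102 kb downstream of its principal start, between Opa1 on the left and Cpn2 on the right, and the downstream side held 0 peaks outside the start-site peak. The nearest peak, chr16:30055579-30061444, ended 2.94 kb before the first start site, was 5866 bp wide and was called in RGC RBPJ alone. A group of 3 peaks followed at 40.4, 43.3 and 46.6 kb, each under 2 kb in width, all in cluster 6 and all in RGC RBPJ alone. They overlapped the non-coding genes 9030404E10Rik and 4632428C04Rik. Farther out, peaks at 60.1 and 69.3 kb were in cluster 5 and a peak at 111 kb in cluster 6, again from RGC RBPJ alone.

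Calls from other lists appeared again in the far upstream part. The peak at 117 kb, within the non-coding gene Gm26569, was called in RGC RBPJ over 2694 bp and in IPC Notch over 582 bp. At 179 kb the peak was called in RGC RBPJ (3458 bp), IPC RBPJ (2274 bp) and IPC Notch (4718 bp), but not in RGC Notch. It held 10 TTCCCA words, or 2.12 per kb, and 0 TTCCCAC. At 208 kb the peak was called in RGC RBPJ and RGC Notch, with a common stretch of 1584 bp, and was in cluster 4. The farthest peak, 219 kb from the gene, was the widest of all members at 8678 bp, was called in RGC RBPJ alone, overlapped the non-coding gene Gm26834 and held 13 TTCCCA and 4 TTCCCAC words.

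**Figure D3:**
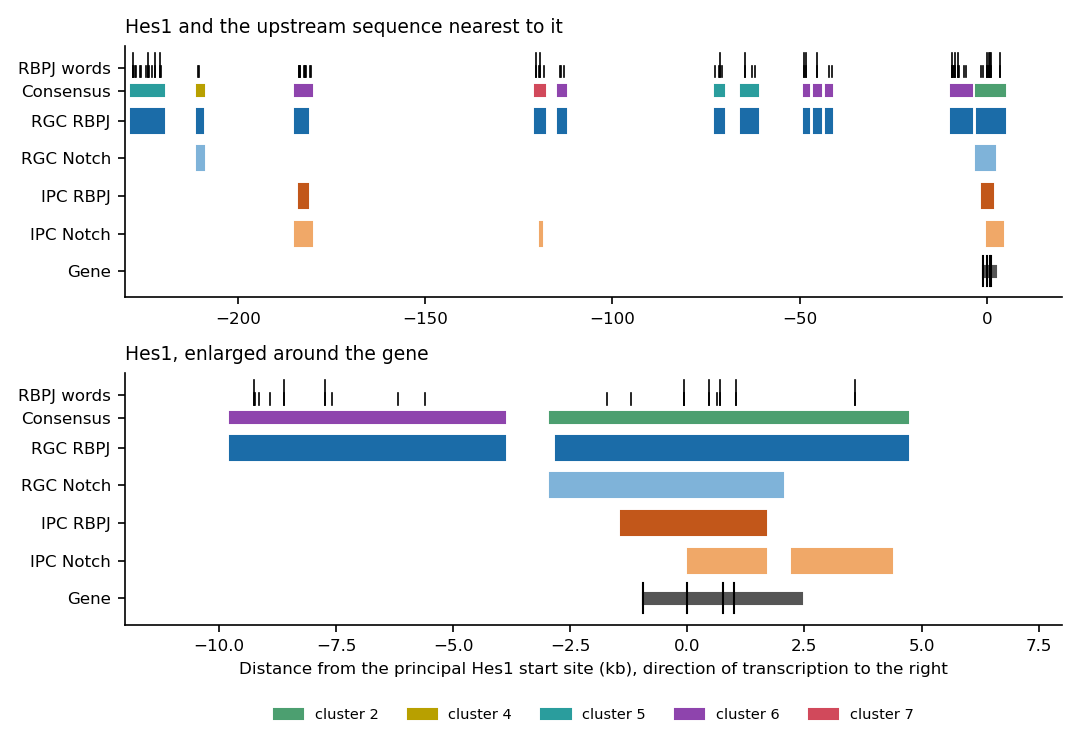
Hes1 peaks by distance in kb from the principal start site, over the upstream sequence nearest to the gene (top) and around the gene (bottom), with rows and ticks as in the plot of start sites. The RGC RBPJ row has 12 peaks, and the rows of the other lists are empty between 117 kb upstream and the start-site peak.

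The distance rule alone gives a gene in a wide gene-poor region more peaks, and non-coding genes lie between these peaks and Hes1. When non-coding genes were allowed as the nearest gene, 10 of the 12 Hes1 peaks were assigned to non-coding genes such as Gm32679, Gm26569 and 4632428C04Rik. Per 100 kb of the sequence nearest to it, Hes1 had 3.68 consensus peaks, against 0.763 per 100 kb of the nuclear genome. Its total of 12 was reached or passed by 185 protein-coding genes, or 2.18% of those with a peak.

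Hes5 (ENSMUSG00000048001), the second main effector in RGCs and the source of the promoter used to target them, lies on chr4:154960923-154962371 on the plus strand. It had 3 peaks within 17.8 kb of sequence nearest to it, or 16.9 per 100 kb, the highest rate of the members. Its start-site peak was covered throughout by the RGC RBPJ peak of 4063 bp, which held 5 TTCCCAC words, including both of those in the promoter sequence above. The IPC RBPJ peak inside it was 424 bp wide, ended 3210 bp before the start and held no TTCCCAC. RGC plasmids carried a Hes5 promoter fragment, so reads from the plasmid and from the gene cannot be told apart there, while the IPC plasmids carried the Tα1 promoter.

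Upstream of Hes5 the Notch calls returned. The peak at 6.64 kb, chr4:154950823-154954286, was called in RGC RBPJ (3228 bp), RGC Notch (3460 bp) and IPC RBPJ (1221 bp). The peak at 12.7 kb, chr4:154942827-154948226, was called in RGC Notch over its whole 5400 bp, in IPC RBPJ over 644 bp and in IPC Notch over 881 bp. It was the only member peak with a Notch call in RGCs and no RBPJ call in RGCs. The IPC peaks overlapped in a stretch of 563 bp, and the printed TTCCCACG lay within it. Both peaks were in cluster 6, and in both each IPC peak was narrower than each RGC peak.

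Hes7 (ENSMUSG00000023781), known as an oscillating repressor of the somite clock, lies on chr11:69120404-69124055 on the plus strand. Its 1 peak, chr11:69117370-69124243, covered the whole gene. The RGC RBPJ peak was 6779 bp wide and the IPC RBPJ peak 5685 bp, with 5590 bp in common. It held 15 TTCCCA and 6 TTCCCAC words, the most of any member peak for each word. The peak also covered a start site of 9130213A22Rik, so its assignment to Hes7 is shared by position.

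Hey1 (ENSMUSG00000040289), a repressor of the related Hey group that pairs with Hes proteins, lies on chr3:8663359-8667256 on the minus strand. Its start-site peak, chr3:8662777-8667075, was called in RGC RBPJ and IPC RBPJ and missed the principal start at 8667256. The IPC RBPJ peak came within 181 bp of it and covered 3 of the 4 annotated start sites, and the RGC RBPJ peak came within 279 bp and covered 2. They shared 2084 bp.

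Hey1 resembled Hes5 in that its Notch calls lay upstream of the start-site peak. The peak at 17533 bp, chr3:8684789-8687347, was called in RGC RBPJ (2184 bp), RGC Notch (2554 bp) and IPC RBPJ (699 bp) and was in cluster 4. The peak at 49.5 kb, chr3:8716717-8721245, was called in all 4 lists and was in cluster 6. Besides the Hes1 start-site peak, it was the only member peak with all 4 calls. The list peaks in it were 2129 bp for RGC RBPJ, 3644 bp for RGC Notch, 1086 bp for IPC RBPJ and 1300 bp for IPC Notch, and all shared 1021 bp. Downstream of the gene, at 35 kb, a narrow peak of 837 bp was called in IPC RBPJ alone. It lay in the non-coding gene Gm32496, was in cluster 3 and held 0 GATC sites, the only member peak without one, against 9.76% of all consensus peaks.

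**Figure D4:**
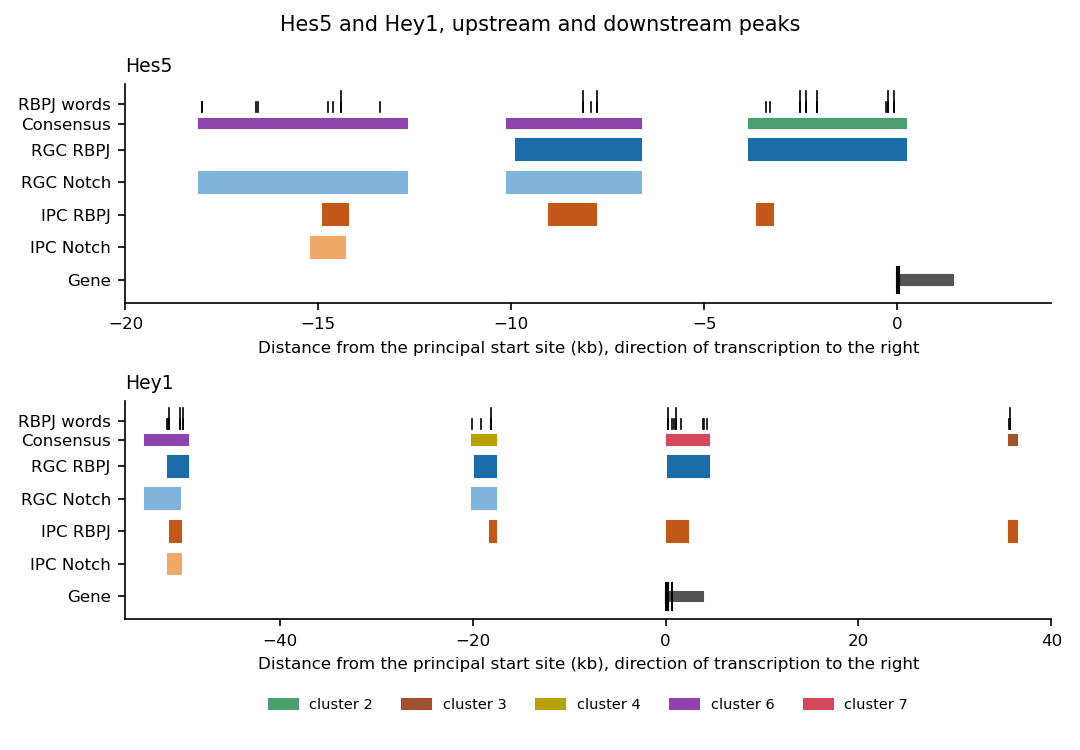
Hes5 (top) and Hey1 (bottom) peaks by distance in kb from the principal start site, with rows and ticks as in the plot of start sites. In both loci the Notch rows are empty at the start site, where for Hes5 reads from the RGC plasmids and from the gene cannot be told apart. RGC Notch is filled at both upstream peaks of each gene, and IPC Notch at the farther one alone, at 12.7 kb for Hes5 and 49.5 kb for Hey1.

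Hey2 and Heyl had calls from 1 list each. Hey2 (ENSMUSG00000019789), known for its part in the heart and in arteries, lies on chr10:30832359-30842801 on the minus strand. Its 1 peak, chr10:30841980-30844524, was called in IPC RBPJ alone, covered both annotated start sites and was in cluster 7. It held 5 TTCCCA words, and 2 of them were CGTGGGAA. Hey2 had 255 kb of sequence nearest to it, and at 0.392 peaks per 100 kb it was the only bound member below the genome value of 0.763.

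Heyl (ENSMUSG00000032744), the remaining Hey gene, lies on chr4:123233556-123249875 on the plus strand. Both of its peaks were called in RGC RBPJ alone. The first, chr4:123233166-123234692, was 1527 bp wide, covered the principal start and was in cluster 2. The second, chr4:123235309-123237885, was 2577 bp wide, lay within the gene and was in cluster 5, with 6 TTCCCA words and 0 TTCCCAC.

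The 3 members with no peak differed in how far the nearest peak was. Hes2 lies on chr4:152158867-152162469, and the nearest consensus peak was 6.9 kb away, called in IPC RBPJ and assigned to Espn. Hes3, a repressor of early neuroepithelium, lies on chr4:152285972-152291662, and the nearest peak was 101 kb away and assigned to Acot7. Hes6, which counteracts Hes1 and favours differentiation, lies on chr1:91411483-91414038, and the nearest peak was 42.5 kb away, called in RGC RBPJ and assigned to Per2. These genes had 13.2, 8.96 and 25.9 kb of sequence nearest to them. The bound members had 11 kb (Hes7), 17.8 kb (Hes5), 33.5 kb (Heyl), 182 kb (Hey1), 255 kb (Hey2) and 326 kb (Hes1). The part of this length in the absence of a peak was not tested. The median of all protein-coding genes was 45 kb.

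**Figure D5:**
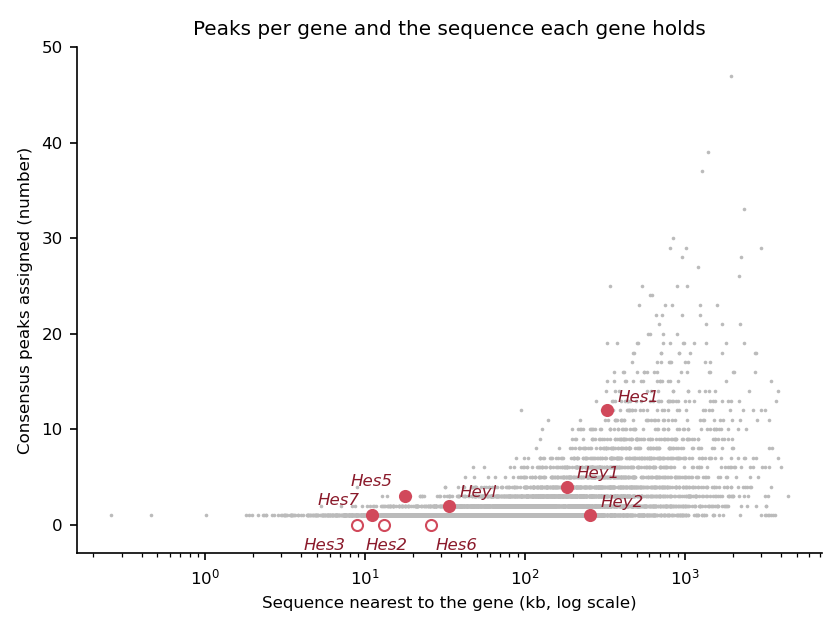
Consensus peaks per gene against the sequence nearest to the gene (kb, log scale) for the protein-coding genes with a peak in grey and the 9 members in red, open where the count is 0. Hes1 lies at 12 peaks in 326 kb, Hes5 at 3 peaks in 17.8 kb and Hey2 at 1 peak in 255 kb.

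Member peaks held more RBPJ words per kb than consensus peaks as a whole. TTCCCA occurred 131 times in 84.4 kb, or 1.55 per kb (exact Poisson 95% interval 1.3 to 1.84, counting error only), against 1.17 over all consensus peaks. TTCCCAC occurred 44 times, or 0.521 per kb (0.379 to 0.7), against 0.27. At the 6 start-site peaks the rates were 1.86 (1.38 to 2.45) and 0.817 (0.512 to 1.24), against 1.12 and 0.273 over all start-site peaks. At the 17 member peaks off start sites they were 1.41 (1.12 to 1.75) and 0.383 (0.24 to 0.58). All consensus peaks off start sites held 1.18 and 0.269, values within these intervals. Hes1 peaks alone held 1.36 TTCCCA per kb (1.04 to 1.74), and the interval includes the genome value. The peaks of the other members held 1.78 (1.388 to 2.258). In the central 500 bp of each peak the order turned, with 1.83 per kb for Hes1 and 1.27 for the other members, against 1.18 over all consensus peaks.

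The longest words were present in most member peaks. TGTGGGAA or CGTGGGAA was found in 17 of 23, a share of 73.9% (53.5 to 87.5) against 21.9% of all consensus peaks. All 6 start-site peaks held at least 1 TTCCCAC, from 1 in Heyl to 6 in Hes7, against 50.6% of all start-site peaks. The median GC content of member peaks was 49.7% against 45.3%, and their greater width gives a word more room, and the part of both in these shares was not tested. The comparison word TAATTA, a homeodomain core, occurred 0.273 times per kb (0.173 to 0.409) in member peaks and 0.358 over all.

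Few genes resembled Hes1 at the start site. In 9 protein-coding genes, or 0.0410%, the peaks of all 4 lists each covered a start site of the gene within 1 consensus peak. In order of the width of that peak these were Zfp608, Tnrc18, Hes1, Tbx18, Tanc1, Nrg1, Fabp7, Nedd4l and Gm11627. Fabp7 encodes the brain lipid-binding protein that marks RGCs, and its peak was 5175 bp wide and, like that of Hes1, in cluster 2. Of the 9 peaks, only that of Hes1 held the paired words. The likeness is one of calls and positions.

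The other genes of the pathway were counted by fixed lists. All 4 Notch receptor genes had a consensus peak, as did 5 of 7 ligand genes, 4 of 5 fringe and receptor modification genes, 4 of 9 receptor processing genes and 6 of 13 genes of endocytosis and turnover. In the nuclear complex 7 of 10 had one, among corepressors 9 of 13 found in the annotation, among other bHLH-Orange factors 3 of 3 and among the listed proneural bHLH factors 6 of 9. The members stood at 6 of 9, and these shares are to be read against 38.7% of all protein-coding genes. RGC Notch peaks covered a start site of 0 receptor, 1 ligand, 1 fringe and modification, 0 receptor processing, 3 endocytosis and turnover, 1 nuclear complex, 0 corepressor, 1 other bHLH-Orange and 1 proneural gene, beside 3.61% of all protein-coding genes.

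Among these genes, Tle3 with 25 and Tle4 with 17 consensus peaks had the most, and Notch1 and Maml3 followed with 12 each, as many as Hes1. Tle3 and Tle4 encode Groucho-type corepressors that Hes proteins recruit, and Maml3 a Mastermind coactivator. Notch1 differed from Hes1 in its calls, with 8 of its 12 peaks called in IPC Notch and 4 in RGC RBPJ, against 3 and 12 for Hes1. The Notch fusion plasmids carried part of the mouse Notch1 coding sequence, so reads from plasmid and gene cannot be told apart over that part. How far the Notch calls at Notch1 come from the plasmids was not tested. Besides Hes1, a consensus peak with calls from all 4 lists lay on a start site of Nrarp, a feedback inhibitor of NICD, and of Tle1. In neither gene did the peaks of all 4 lists themselves cover a start site, since 2 lists did so for each.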

How the data were processed

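TaDa libraries of 39 samples were labelled by cell type and Dam fusion, and 14 of them lie behind the lists used here, and 9 were Dam-only samples of the same promoters. The other 16 were not analysed here as groups. The paper lists their Dam-only samples too among those used to normalize the fusion samples. It does not state which Dam-only samples entered each pair for peak calling. After mapping to mm10, the authors ran Macs2 in broad mode on each combination of a fusion sample and a Dam-only sample, applied an FDR limit, retained peaks that every combination gave, merged overlapping peaks of the 4 conditions and clustered their averaged, length-normalised intensities. The deposited values are positions in bp and a cluster number, with 0 columns of single samples, so depth per sample and replicate error cannot be read from them. Peaks on 21 nuclear chromosomes were used and are printed counted from 1. Start sites came from GENCODE M21 (GRCm38.p6), whose chromosome lengths matched the sequence read, and the principal start is that of the APPRIS-tagged transcript. Words were searched on both strands with overlaps allowed, so TTCCCAC and the 8-base words lie on a TTCCCA. Shares have Wilson 95% intervals, and words per kb exact Poisson intervals. Python 3.11.15, numpy 2.4.6, scipy 1.17.1, pysam and matplotlib 3.10.9 were used, and nearest sites, words, pairs and intervals matched a direct search or scipy in 500 of 500 cases each. The members and lists were chosen with earlier results of these data known. All 9 members were named, as were pathway genes with calls from all 4 lists in a peak on a start site or among the 3 with the most peaks (4 with a tie), and genes whose start site was covered by all 4 lists. Alternatives were the midpoint, all annotated genes, the 5′ end alone, a limit of 100 kb, widths of at least 1000 bp, at least 2 GATC sites, calls in at least 2 lists, cover of at least 50%, start sites within 1000 bp, the longer word, the central 500 bp and leaving out Hes1. Sequence windows of the Hey1 peaks are not reported here.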

Additional observations from a re-analysis of the deposited data

How the results depend on the processing

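The number of member peaks moved from 23 to 10 with all annotated genes and to 11 with calls in at least 2 lists. With all annotated genes, peaks called in RGC RBPJ, RGC Notch, IPC RBPJ and IPC Notch numbered 8, 3, 7 and 2. With calls in at least 2 lists, 10 peaks were called in RGC RBPJ, and 100% lay in clusters 2, 4, 6 and 7. Without Hes1, 8 were called in RGC RBPJ and 2 in IPC Notch. Within 100 kb, 3 were called in IPC Notch. Requiring list peaks to cover at least 50% of the consensus peak left 4 in IPC RBPJ and 1 in IPC Notch. With the 5′ end alone, 0 members had an IPC Notch peak on a start site. The longer word TTCCCAC gave 0.521 per kb, since it is rarer than TTCCCA. Among all annotated genes the peaks per 100 kb were 7.23 for Hes1, 4.35 for Hey1 and 2.56 for Hey2, because the sequence nearest to each shrank. The other 68 alternative values stayed within 1.5 times the count or within the interval of the share or rate. No paired analysis was possible because the files hold pooled lists without values of single samples, and for the same reason no replicate could be left out. Depth limits these results in that a peak absent from a list is a peak not called in every combination of fusion and control, not a place without binding.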
